A study of Bos taurus with 30 samples.

Results

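The genes described here take up, activate, remodel, store and oxidise fatty acids, and they were followed in day 15 bovine embryos produced in vitro (IVP) or in vivo (IVV). They were chosen by symbol from 14 gene families: SLC27A, FABP, ACSL, ACSM, FADS, SCD, ELOVL, AGPAT, LPIN, DGAT, PLIN, CPT, ACAD and HADH. Of 71 matching symbols among the 35092 genes counted, 66 had at least 10 counts in at least 3 libraries and are the members reported below. The other 5 were FABP2, FABP4 and FABP7, with 0 counts in every library, FABP12, with at most 1 count, and FABP9, with at most 6. By role, 20 members act in uptake and activation, 14 in desaturation and elongation, 16 in storage and 16 in oxidation.

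The study sequenced poly(A) RNA from pieces of the embryonic disc (ED), which holds the future body of the embryo, and of the extra-embryonic membranes (EEM), which are mostly trophoblast. IVP embryos came from slaughterhouse Holstein oocytes that were matured, fertilised with semen of 1 bull and cultured without serum until transfer on day 7 into 2 recipient cows. IVV embryos came from 2 superovulated Holstein cows inseminated with semen of the same bull, and both kinds were flushed on day 15. The paper reports that IVP embryos were then shorter than IVV embryos and more often lacked an ED. Embryos without an ED were discarded. There were 7 IVP and 9 IVV libraries of the ED and 6 IVP and 8 IVV libraries of the EEM, from 8 IVP and 9 IVV embryos. Libraries of both tissues existed for 13 embryos (5 IVP, 8 IVV). Procedure and cow cannot be told apart, embryos of a group share dams or sire, and the labels give neither sex nor morphology of an embryo. The p-values therefore measure only the spread between these embryos.

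Long-chain fatty acids cross the cell membrane with the help of transport proteins of the SLC27A family, are carried in the cytosol by fatty acid binding proteins and are trapped as acyl-CoA by acyl-CoA synthetases. Acyl-CoA can then be lengthened and desaturated, esterified into triacylglycerol that is packed into lipid droplets coated by perilipins, or passed by carnitine palmitoyltransferases into mitochondria for β-oxidation. Lipid droplets are abundant in bovine embryos, and the elongating conceptus draws fatty acids from the uterine fluid and makes prostaglandins from them.

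Library totals ran from 48713218 to 63037371 counts. Values are CPM, that is counts scaled by library total with TMM factors over all libraries. They were not divided by transcript length, so levels are compared between libraries and never between genes. A member counted as at the floor where no library of the group had more than 3 counts. Of the disc markers, POU5F1 ran from 16.5 to 227 CPM in the ED and from 0.419 to 2.43 in the EEM, whereas SOX2 was at 0 in all 30 libraries. The ED pieces also held trophoblast RNA. The 19 trophoblast markers summed to between 14290 and 79160 CPM in the ED of IVP embryos and 35780 and 54750 in that of IVV embryos, against 39750 to 93270 and 39280 to 72860 in the EEM. In bulk RNA, fewer cells of a type and less RNA per cell cannot be told apart. The 10 mesoderm markers summed to between 8.05 and 18.6 CPM in the ED of IVP embryos and between 28.4 and 137 in that of IVV embryos. These ranges did not overlap, but the share of all genes whose groups separate in this way was not counted. Of the 9 mesoderm markers tested, 7 fell in IVP, against 4.95% of all 15733 genes tested. TBXT, at 0 CPM in the ED of IVPF13 and IVPF15, passed the count filter through the IVV embryos. The 12 epiblast markers summed to 254 to 658 and 255 to 1102 CPM in the ED of IVP and IVV embryos, with 1 of 8 tested lower, and SOX2 and UTF1 were at 0. In the ED, 2 of 14 hypoblast, 1 of 19 trophoblast and 1 of 5 uterine markers tested also fell in IVP, and no marker rose. In the EEM, 1 of 12 hypoblast markers fell and 1 of 7 epiblast markers rose, against 1.52% and 2.29% of all genes tested. Markers of maternal blood summed to at most 44.8 CPM in any library. XIST, the RNA of the inactive X chromosome, was under 1 CPM in all 13 IVP libraries and in both tissues of the IVV embryos VE3 and VE5. It ran from 44.9 to 151 CPM in the other 7 IVV ED libraries and from 96.6 to 421 in the other 6 IVV EEM libraries. XIST level, and with it the likely sex of the embryo, was thus almost confounded with procedure. In the comparisons of IVP and IVV embryos the 2 can hardly be told apart.

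The first question was whether the members differed between IVP and IVV embryos in the ED. Few did. SCD was higher in the ED of IVP embryos, and SCD5 and FABP6 were lower. Of the 63 members tested, 1 rose and 2 fell at an adjusted p under 0.05 in edgeR's quasi-likelihood test with 1 surrogate variable, while 1.4% of all 15733 genes tested rose and 4.95% fell. The median log2 fold change of the members was 0.053, and that of all genes was -0.0078. At an unadjusted p under 0.05 there were 12 members (19.0%), and 18.4% of all genes. Among these 12 members were 7 of the 13 desaturation and elongation genes tested, 3 of 19 uptake and activation genes, 1 of 15 storage genes and 1 of 16 oxidation genes. The share of members past either threshold was near that of all genes, and only the desaturation and elongation group held more than 3 of them.

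SCD encodes the stearoyl-CoA desaturase that makes oleate and palmitoleate from saturated fatty acids. In the ED its level was 1090 CPM in the lowest, 1352 in the median and 2363 in the highest IVP embryo, and 353, 765 and 1326 CPM in the IVV embryos. The groups overlapped, with 3 IVV embryos (VE24, 1238 CPM; VE26, 1200; VE5, 1326) inside the IVP range. The log2 fold change was 0.83 ± 0.23 (SE), with an adjusted p = 0.0316 from edgeR. In the EEM, SCD stood at 1187 ± 405 CPM (SD, n = 6) in IVP embryos and 910 ± 425 (n = 8) in their IVV counterparts. This log2 fold change of 0.40 ± 0.25 (SE) did not pass the test (adjusted p = 0.581, edgeR). Its interaction of tissue and procedure was 0.37 ± 0.29 on the log2 scale (adjusted p = 0.784, edgeR), so a difference between the tissues was not shown. The ED call was lost without a surrogate variable (adjusted p = 0.0896, edgeR), with the letter that ends the sample title as a term (adjusted p = 0.0577) and when XIST entered as a covariate (adjusted p = 0.408, log2 fold change 0.70). It was also lost in 7 of the 16 fits that left out 1 embryo (IVP10, IVPF15, VE3, VE6, VE19, VE28 or VE29), with the largest adjusted p, 0.073, without VE29.

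SCD5 encodes a second stearoyl-CoA desaturase, which in other mammals is found mainly in brain and pancreas. It moved opposite to SCD in the ED. Its lowest, median and highest levels were 0.835, 2.15 and 3.91 CPM in IVP embryos and 1.11, 5.63 and 19.1 CPM in IVV embryos. The groups overlapped, since VE4, VE6 and VE24 lay at 1.11, 2.12 and 3.30 CPM, inside the IVP range. The log2 fold change was -1.68 ± 0.45 (SE), with an adjusted p = 0.0256 from edgeR. VE5, the highest embryo, also had the highest POU5F1, at 227 CPM, and the highest sum of mesoderm markers, and VE4, the lowest IVV embryo, had the lowest POU5F1 of its group, at 27.1 CPM. The mesoderm markers did not all follow this order, since KDR was at 33.3 CPM in VE6 and 7.49 in VE5. The part of these cell types in the SCD5 difference was not tested. Without VE5 the log2 fold change was -1.20 and the call was lost (adjusted p = 0.118, edgeR). It was also lost without IVP10, IVPF14, VE28 or VE29, with limma voom (adjusted p = 0.132) and with 2 surrogate variables (adjusted p = 0.0575).

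FABP6, the ileal bile acid binding protein of the fatty acid binding protein family, was close to the limit of detection. It was at the floor in the ED of all 7 IVP embryos, with at most 3 counts, while the 9 IVV embryos had a mean of 0.307 ± 0.257 CPM (SD) and ran from 0.0177 to 0.862 CPM. Against a floor of 3 counts per library it was at least 5.55-fold lower in IVP (adjusted p = 0.00577, edgeR). FABP6 reached 10 counts in no other group, so it was counted and tested through the group where it is high, and the p is no independent support. The ranges overlapped by the lowest IVV embryo. It fell under the filter with halved counts and when any of 7 IVV embryos (VE3, VE5, VE6, VE19, VE24, VE28 or VE29) was left out, so the stability of the call cannot be read from the fits that remained. FABP1, the liver form, lay at 0.118 ± 0.0917 CPM in IVP and 0.455 ± 0.337 in IVV embryos and did not pass the test (log2 fold change -1.92 ± 0.68, adjusted p = 0.101, edgeR; 0.0482 with DESeq2). FABP1 too passed the count filter through the IVV embryos, where it is high, so its p-values are no independent support. FABP3 and FABP5, the forms of heart and skin, were at 177 ± 67.0 and 125 ± 66.5 CPM in IVP and 159 ± 68.1 and 131 ± 31.3 CPM in IVV embryos. Their log2 fold changes of 0.24 and -0.14 did not pass the test (adjusted p = 0.655 and 0.837, edgeR).

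**Figure D1:**
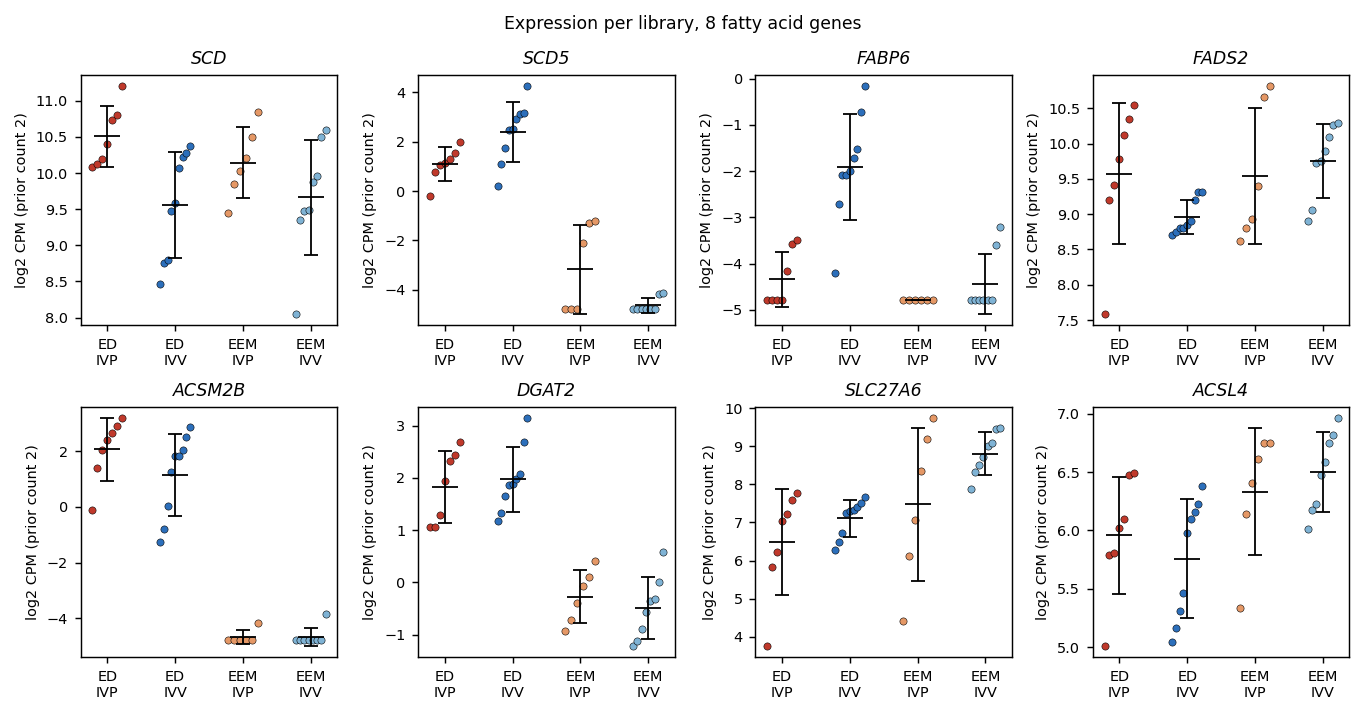
Expression of 8 members in log2 CPM (prior count 2; y axes differ between panels) for each library of the ED and EEM of IVP and IVV embryos. Points are libraries, and the bar and whiskers are the mean and SD of 7, 9, 6 and 8 libraries. SCD was higher and SCD5 and FABP6 were lower in the ED of IVP embryos, and SCD5, ACSM2B and DGAT2 were higher in the ED than in the EEM of each of the 13 embryos with both tissues.

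Of the other desaturases and elongases, 0 of 11 tested were called in the ED by edgeR, with 5 at an unadjusted p under 0.05 (FADS2, FADS3, ELOVL3, ELOVL4 and ELOVL6). DESeq2 called FADS2 and ELOVL6 higher in IVP (adjusted p = 0.0490 and 0.0370). FADS2 was also called with 2 surrogate variables (adjusted p = 0.0267, edgeR) and without IVPF10 (0.00860), ELOVL6 without IVP11 (0.0210) and FADS3 without VE24 (0.0342). FADS2, the Δ6 desaturase that opens the path to polyunsaturated fatty acids, had lowest, median and highest levels of 193, 877 and 1497 CPM in the ED of IVP embryos and 417, 461 and 637 CPM in that of IVV embryos. IVP embryos thus lay both below and above the whole IVV range. The log2 fold change of FADS2 was 0.79 ± 0.27 (SE) and did not pass the test (adjusted p = 0.0898, edgeR), which was the smallest adjusted p among the 60 members not called in the ED. ELOVL6, which lengthens palmitate to stearate, the substrate of SCD, was at 505 ± 155 CPM in IVP and 322 ± 74.2 CPM in IVV embryos (log2 fold change 0.49 ± 0.18, adjusted p = 0.106, edgeR). FADS1, the Δ5 desaturase, and FADS3 had log2 fold changes of 0.55 and 0.61 (adjusted p = 0.501 and 0.237, edgeR). VE19 stood apart for FADS1, at 11.3 CPM where the other IVV embryos had 104 to 266, and the log2 fold change was 0.29 without it and 0.85 without IVPF10, the lowest IVP embryo (adjusted p = 0.648 and 0.176, edgeR). ELOVL4, which makes very long chains, and ELOVL3 leaned the other way, at -0.88 and -1.71 (adjusted p = 0.196 and 0.228, edgeR). FADS2B had at most 0.276 CPM in any ED library and passed the filter of no comparison.

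Summed over the 14 desaturation and elongation members, the ED of IVP embryos held 3707 ± 923 CPM and that of IVV embryos 2275 ± 605 CPM, and the ranges, 2491 to 5148 and 1475 to 3099, overlapped. The sum follows the members with the most reads, and of the 13 tested in the ED 8 had a fitted log2 fold change above 0 and 5 below. In the EEM the sums were 3396 ± 940 and 2878 ± 837 CPM. The sums of the other roles lay closer together. In the ED of IVP and IVV embryos, uptake and activation summed to 1826 ± 535 and 1533 ± 243 CPM, storage to 1263 ± 381 and 1075 ± 172 CPM, and oxidation to 439 ± 101 and 457 ± 30.8 CPM. The sums carry no test.

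**Figure D2:**
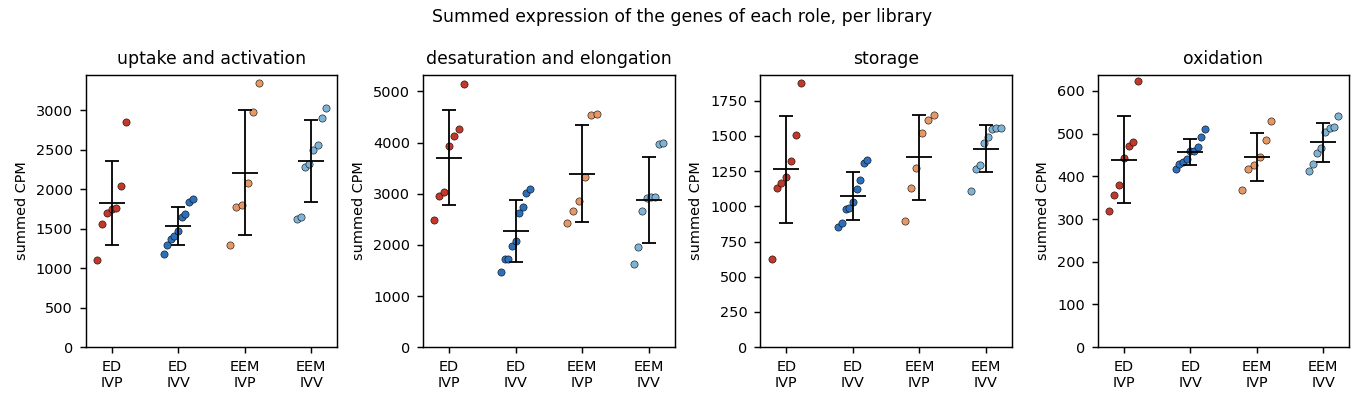
Summed CPM of the members of each role in every library (y axes start at 0 and differ between panels), with the mean and SD of each group. The desaturation and elongation sums of the ED were 3707 ± 923 CPM in IVP and 2275 ± 605 CPM in IVV embryos, with overlapping ranges.

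Of the acyl-CoA synthetases, none passed the test in the ED. ACSL4, which prefers arachidonate and is encoded on the X chromosome, had lowest, median and highest levels of 32.2, 65.0 and 89.8 CPM in IVP and 32.9, 62.96 and 83.1 CPM in IVV embryos. These ranges nearly coincided, and the log2 fold change was 0.031 ± 0.18 (SE; adjusted p = 0.962, edgeR). Its sign turned to -0.14 with XIST as a covariate. In the EEM, ACSL4 stood at 84.8 ± 26.1 CPM in IVP and 92.8 ± 21.5 in IVV embryos (log2 fold change -0.19 ± 0.20, adjusted p = 0.863, edgeR). ACSL3, which supplies acyl-CoA to growing lipid droplets, had 831 ± 235 CPM in the ED of IVP and 612 ± 206 in that of IVV embryos (log2 fold change 0.37 ± 0.21, adjusted p = 0.36, edgeR). ACSL1, the main synthetase of liver and fat, had 9.78 ± 3.90 and 5.90 ± 2.66 CPM (log2 fold change 0.72 ± 0.32, adjusted p = 0.224, edgeR). ACSM2B, a mitochondrial synthetase for medium-chain acids and xenobiotic carboxylic acids best known from liver and kidney, ran from 0.891 through a median of 5.29 to 9.12 CPM in IVP and from 0.384 through 3.51 to 7.28 CPM in IVV embryos. The spread between embryos of a group was thus wide, the groups overlapped, and the log2 fold change was 0.70 ± 0.50 (SE; adjusted p = 0.531, edgeR).

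None of the 15 storage and 16 oxidation members tested passed the test in the ED. Named by their families' highest mean counts, AGPAT3, LPIN2, DGAT1 and PLIN3 act in turn along triacylglycerol assembly and packing. Their log2 fold changes were 0.44, 0.20, -0.050 and 0.14, with adjusted p between 0.406 and 0.961 (edgeR). PLIN3, a perilipin of small droplets, illustrates the spread, with 162 to 1211 CPM in IVP and 423 to 737 CPM in IVV embryos. CPT1A, the entry step of mitochondrial oxidation, was at 28.4 ± 11.2 CPM in IVP and 35.9 ± 8.92 in IVV embryos (log2 fold change -0.36 ± 0.24, adjusted p = 0.498, edgeR). ACADVL, the first dehydrogenase of long-chain acyl-CoA, was at 79.3 ± 34.2 and 79.1 ± 16.5 CPM (log2 fold change -0.043 ± 0.23, adjusted p = 0.96, edgeR). HADH, the short-chain hydroxyacyl-CoA dehydrogenase, was at 47.8 ± 15.1 and 57.3 ± 9.45 CPM (log2 fold change -0.36 ± 0.21, adjusted p = 0.38, edgeR). Over all 60 members not called in the ED, fitted log2 fold changes ran from -1.92 (FABP1) to 0.85 (CPT1C), and 48 lay within 0.5 of 0.

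The same comparison in the EEM gave no call. Of the 58 members tested, 0 rose and 0 fell at an adjusted p under 0.05 in edgeR, while 2.29% of all 14718 genes tested rose and 1.52% fell. DESeq2 called 0 higher and 1 lower, and limma voom 0 in either direction. At an unadjusted p under 0.05 there were 7 members (12.1%), against 13.7% of all genes, with a median log2 fold change of 0.041 over the members. The smallest adjusted p, 0.0542, was that of DGAT2L6, a relative of the acyltransferase DGAT2, at 0.138 ± 0.0505 CPM in IVP and 0.408 ± 0.199 in IVV embryos (log2 fold change -1.54). DGAT2L6 passed the count filter through the IVV embryos, where it is high, so this p is no independent support. Fitted changes reached 1.41 for PLIN4, and 47 of the 58 lay within 0.5 of 0. ELOVL6, at 501 ± 194 CPM in IVP and 306 ± 89.3 in IVV embryos, had a log2 fold change of 0.65 ± 0.24 that did not pass the test (adjusted p = 0.157, edgeR). FADS2 was at 904 ± 634 and 908 ± 290 CPM, with a log2 fold change of -0.015 ± 0.33 (adjusted p = 0.998, edgeR). No member was called in both tissues.

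**Figure D3:**
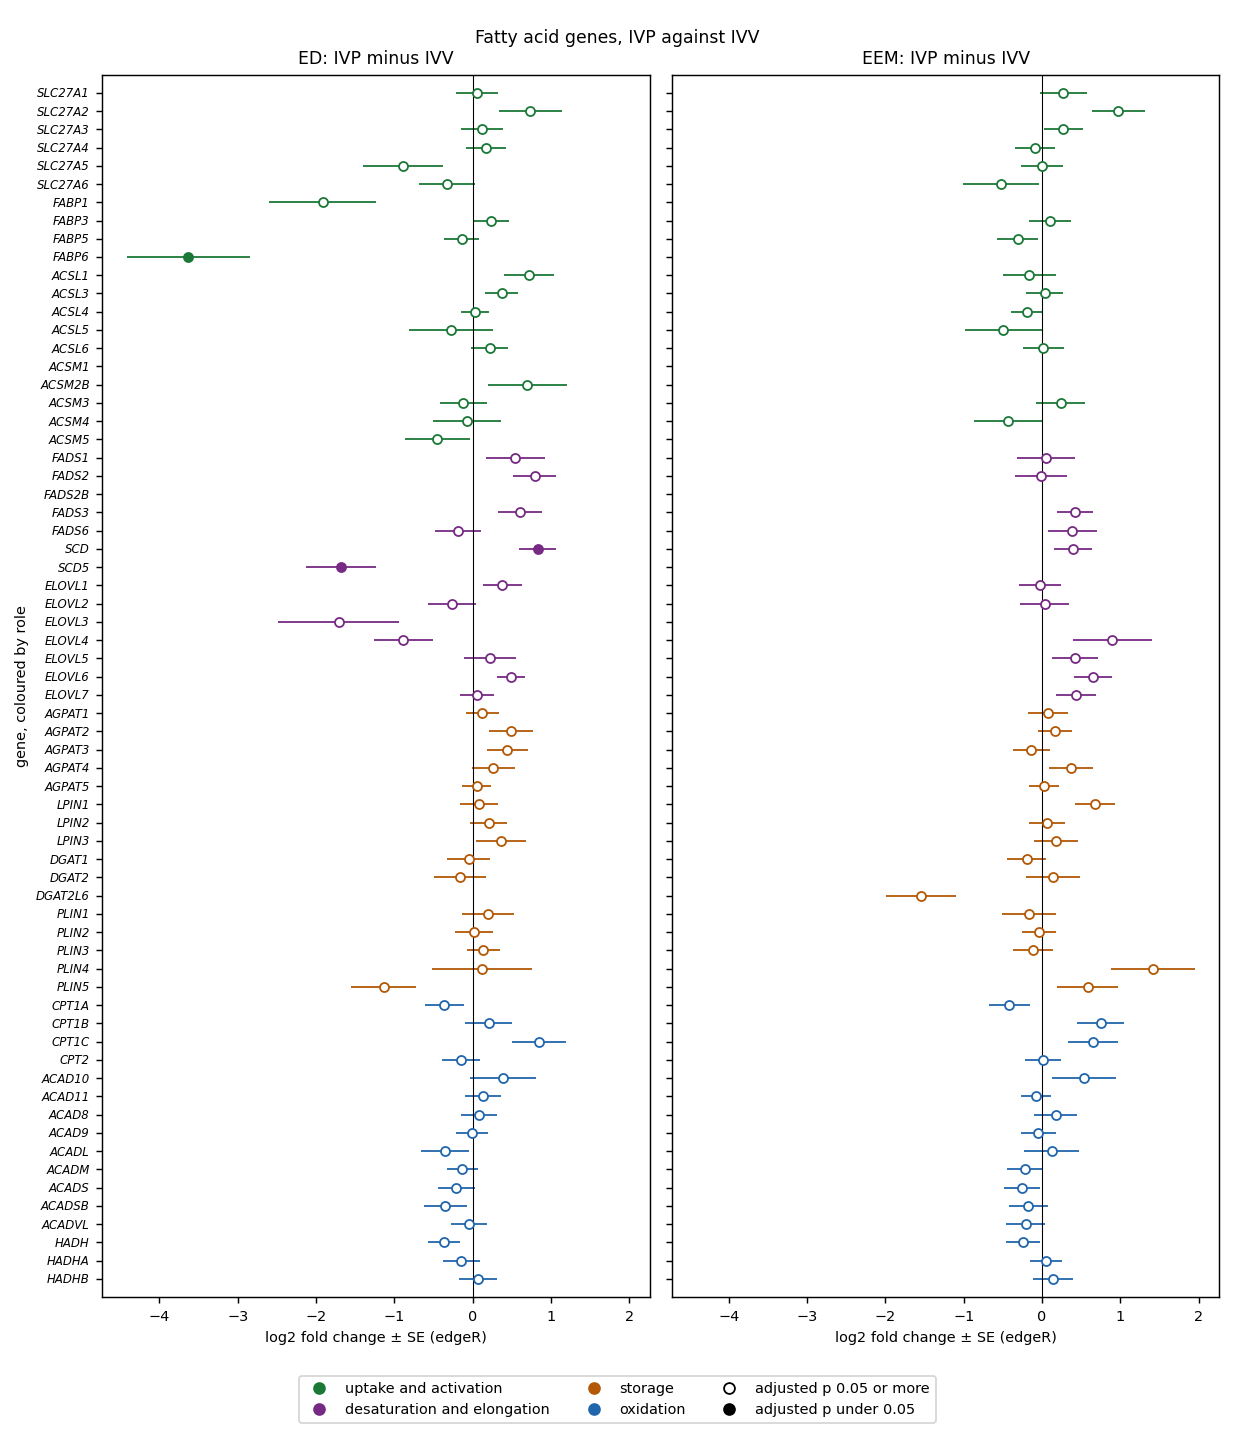
Fitted log2 fold change of IVP over IVV embryos with its SE for each member tested in the ED (63 members, left) and in the EEM (58, right), coloured by role; filled points have an adjusted p under 0.05. SCD lay to the right of 0 and SCD5 and FABP6 to the left in the ED, and no point was filled in the EEM. The fitted value of FABP6, at the floor in IVP embryos, depends on the prior count.

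The second question was how the ED and EEM of the same embryo differed. Members called stood on both sides, in shares near those of all genes. Of 59 tested in the 13 embryos with both tissues, with embryo as a block, 9 were higher in the ED (SLC27A1, ACSL1, ACSM2B, SCD5, ELOVL4, AGPAT1, LPIN1, DGAT2 and ACADSB) and 6 were lower (SLC27A6, ACSL4, AGPAT2, AGPAT3, LPIN2 and PLIN1). These were 15.3% and 10.2% of the members, and 12.8% and 8.16% of the 14898 genes tested were higher and lower. Among the 9, ACSM2B and SCD5 passed the count filter through the ED, where they are high, so their p-values and counts of embryos describe these libraries and are no independent support. The median log2 difference was -0.015 for the members and -0.085 for all genes. Members called stood in each direction within uptake and activation (3 higher, 2 lower of 16) and within storage (3 higher, 4 lower of 15), whereas desaturation and elongation had 2 higher of 12 and oxidation 1 higher of 16. In the 5 IVP embryos alone 4 members (ACSL1, ACSM2B, SCD5 and DGAT2) were called higher and 0 lower, where 3.28% of all genes were called in either direction. The calls of the other 11 were lost there, and the log2 difference fell to 0.11 for LPIN1, -0.12 for AGPAT3, -0.32 for AGPAT2, 0.78 for ELOVL4 and -0.50 for PLIN1 (adjusted p from 0.736 to 0.936, edgeR). ACSL4 (-0.51), AGPAT1 (0.52), LPIN2 (-0.34), ACADSB (0.61) and SLC27A1 (0.42) lay closer to their values over 13 embryos. In the 8 IVV embryos alone, ACSL1 (0.42, against 1.39 in IVP embryos alone) and LPIN2 (-0.27) were not called.

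ACSM2B was read in the ED of every embryo, with the levels given above, and was at the floor in all 14 EEM libraries, with at most 2 counts. In the 13 paired embryos it was at least 65.2-fold higher in the ED, against a floor of 3 counts per library, and the ED was the higher tissue in 13 of 13 embryos (adjusted p = 1.06e-11, edgeR). The bound was 97.0-fold in the IVP and 44.9-fold in the IVV embryos. Of the ED libraries lowest for ACSM2B, VE5 (0.384 CPM) had the highest POU5F1, while VE4 (0.548 CPM) and IVP10 (0.891 CPM) had the lowest POU5F1 of their groups, at 27.1 and 16.5 CPM. The ACSM genes are close copies of each other in mammals, and how reads shared between copies were counted is not given in the sources used here. Of its relatives, ACSM3 and ACSM4 were read in both tissues without a call (log2 difference 0.22 and 0.37, adjusted p = 0.421 and 0.312, edgeR). The remaining ACSM members had few counts and were not tested between the tissues, with the ED higher in 11 and 12 of 13 embryos.

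SCD5 followed the same division. In the EEM of IVV embryos it was at the floor, with at most 1 count in each of 8 libraries, so that it was at least 127-fold higher in the ED of those embryos. In the EEM of IVP embryos it had 0 counts in 3 libraries and 20, 17 and 11 counts in IVP11, IVPF13 and IVPF9. The ED was the higher tissue in 13 of 13 embryos (adjusted p = 4.99e-07, edgeR). SCD had a log2 difference of 0.078 ± 0.15 between the tissues that did not pass the test (SE; adjusted p = 0.732, edgeR), with the ED higher in 6 of 13 embryos. ELOVL4 was at 1.06 ± 0.457 and 1.91 ± 1.09 CPM in the ED of IVP and IVV embryos and at 0.641 ± 0.352 and 0.379 ± 0.325 CPM in the EEM (log2 difference 1.83 ± 0.46, adjusted p = 0.00777, edgeR), with the ED higher in 11 of 13 embryos.

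DGAT2, which catalyses the last step of triacylglycerol synthesis, was higher in the ED by 2.32 ± 0.21 on the log2 scale (SE; adjusted p = 9.6e-08, edgeR). Its lowest, median and highest levels were 2.05, 3.82 and 6.39 CPM in the ED of IVP and 2.21, 3.64 and 8.82 CPM in that of IVV embryos. In the EEM they were 0.489, 0.820 and 1.29 CPM in IVP and 0.396, 0.690 and 1.45 CPM in IVV embryos, so that no EEM library reached the lowest ED library. DGAT1, the unrelated enzyme for the same step, leaned the other way without a call (log2 difference -0.30 ± 0.12, adjusted p = 0.0933, edgeR). Of the upstream acyltransferases and phosphatases, AGPAT1 and LPIN1 were higher in the ED (0.42 and 0.53 on the log2 scale, adjusted p = 0.01 and 0.0109, edgeR; ED higher in 12 and 10 of 13 embryos). AGPAT2, AGPAT3 and LPIN2 were lower (-0.51, -0.50 and -0.33, adjusted p = 0.0158, 0.0166 and 0.011, edgeR; ED lower in 11, 11 and 13 embryos). AGPAT2 is named after its value was seen. Members of the AGPAT and LPIN families thus differed between the tissues in opposite directions.

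Of the members lower in the ED, SLC27A6 had the most negative log2 difference. SLC27A6, a fatty acid transport protein, had lowest, median and highest levels of 13.6, 130 and 217 CPM in the ED of IVP and 78.1, 158 and 204 CPM in that of IVV embryos, and of 21.4, 230 and 855 CPM and 234, 466 and 717 CPM in the EEM. All 8 EEM libraries of IVV embryos lay above all 9 ED libraries of IVV embryos, whereas in IVP embryos the tissues overlapped. The log2 difference was -1.39 ± 0.30 (SE; adjusted p = 0.00197, edgeR), and the EEM was higher in 12 of 13 embryos, the exception being IVPF14, with 74.9 CPM in the ED and 21.4 in the EEM. In the 5 IVP embryos alone the log2 difference was -0.94 and was not called (adjusted p = 0.705, edgeR). The lowest library of all, the ED of IVPF10, also had the lowest sum of trophoblast markers, 14290 CPM. The next lowest, the EEM of IVPF14, did not follow this, since no EEM library of IVP embryos had a sum under 39750 CPM. The part of trophoblast RNA in the SLC27A6 levels was not tested.

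ACSL4 was lower in the ED by 0.61 ± 0.089 on the log2 scale (SE; adjusted p = 3.68e-05, edgeR), and the EEM was the higher tissue in all 13 embryos. Across embryos the levels of the tissues overlapped, with 32.2 to 89.8 CPM over the ED libraries and 40.2 to 125 CPM over the EEM libraries. ACSL1 showed the opposite order, higher in the ED of 13 of 13 embryos by 0.75 ± 0.17 on the log2 scale (adjusted p = 0.00245, edgeR). ACSL3 lay between, with a log2 difference of -0.33 ± 0.12 that did not pass the test (adjusted p = 0.0607, edgeR). SLC27A1, a transporter of muscle and fat, was higher in the ED by 0.48 ± 0.16 (adjusted p = 0.0387, edgeR), a call kept only without IVP11, IVPF13 or VE29 when 1 of the 13 embryos was left out, with the largest adjusted p, 0.0865, without VE19. PLIN1, the perilipin of fat cells, was lower in the ED, with 4.44 ± 2.39 and 3.93 ± 1.16 CPM in the ED of IVP and IVV embryos against 7.59 ± 5.19 and 8.70 ± 2.75 CPM in the EEM (log2 difference -0.83 ± 0.19, adjusted p = 0.00349, edgeR). PLIN2 and PLIN3, which coat droplets in most cells, had log2 differences of -0.10 and -0.13 (adjusted p = 0.52 and 0.563, edgeR). ACADSB, a dehydrogenase of short branched acyl-CoA, was the 1 oxidation member called (0.57 ± 0.12, adjusted p = 0.00202, edgeR; ED higher in 12 of 13 embryos). CPT1A, ACADVL and HADH had log2 differences of -0.23, -0.27 and 0.089 (adjusted p = 0.136, 0.344 and 0.5, edgeR).

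**Figure D4:**
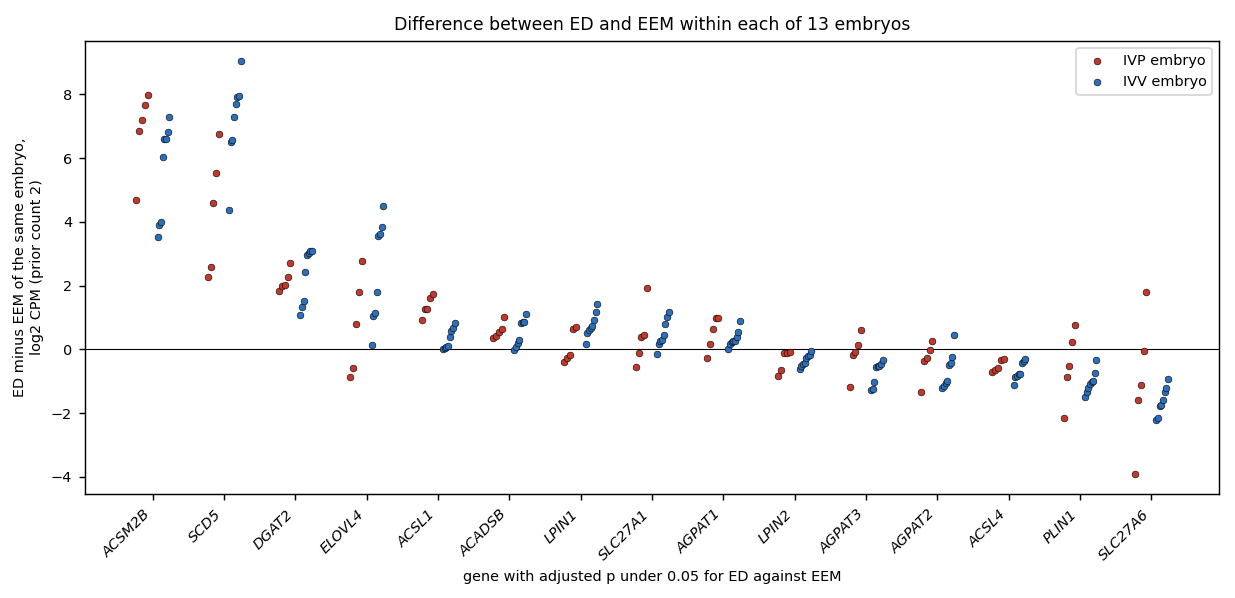
Difference in log2 CPM (prior count 2) between the ED and EEM of the same embryo, for the 15 members called in that comparison; each point is 1 of 5 IVP or 8 IVV embryos, and points above 0 are higher in the ED. ACSM2B, SCD5, DGAT2 and ACSL1 were higher in the ED of all 13 embryos, and ACSL4 and LPIN2 were lower in all 13.

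The third question was whether the difference between IVP and IVV embryos depended on the tissue. Of 65 members tested for the interaction, 1 was called, SCD5 (log2 -5.69 ± 1.26, SE; adjusted p = 0.0322, edgeR), and 1.02% of all 16784 genes tested were called in either direction. SCD5 passed the count filter through the ED and was at the floor in the EEM of IVV embryos, so its p is no independent support and the size of the term depends on the prior count. Over all libraries, of which 4 (the ED of IVPF10, IVPF15 and VE6 and the EEM of IVPF9) were not in this fit, levels were 2.27 ± 0.967 CPM in the ED of IVP and 6.86 ± 5.34 in that of IVV embryos, and 0.159 ± 0.188 CPM in the EEM of IVP and at most 1 count per library in that of IVV embryos. The call was lost with DESeq2 (adjusted p = 0.183) and in 7 of 13 fits that left out 1 embryo (IVP11, IVPF13, VE3, VE5, VE26, VE28 or VE29), with the largest adjusted p, 0.151, without IVP11. The next smallest adjusted p was that of ACSL1, 0.0625. Its level in the ED was 9.78 CPM in IVP and 5.90 in IVV embryos and in the EEM 3.92 and 4.39 (log2 term 0.99 ± 0.25, edgeR). For ACSL4 and ACSM2B the terms were 0.12 ± 0.18 and 1.41 ± 1.70 (adjusted p = 0.933 and 0.902, edgeR).

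Other genes of lipid metabolism outside these families, 126 in 6 lists, were examined for context. In the ED 1 of 116 tested rose in IVP embryos and 4 fell (0.862% and 3.45%, against 1.4% and 4.95% of all genes). LIPA, the lysosomal lipase, had 13.2 ± 4.04 CPM in IVP and 27.8 ± 12.9 CPM in IVV embryos (log2 fold change -1.14 ± 0.28, adjusted p = 0.0156, edgeR). ANGPTL4, an inhibitor of lipoprotein lipase and a target of PPAR receptors, had 0.440 ± 0.263 and 1.64 ± 0.996 CPM (-1.86 ± 0.48, adjusted p = 0.0209, edgeR). PPARA, the receptor that drives fatty acid oxidation genes in liver, had 0.398 ± 0.224 and 1.14 ± 0.972 CPM (-1.71 ± 0.49, adjusted p = 0.0366, edgeR). The other fall was LRP1 and the rise was SOAT1, both named after their values were seen. LIPA and ANGPTL4 lost the call without VE5 and under no other setting tried. PPARA lost it in 9 of 16 fits that left out 1 embryo (IVP10, IVP11, IVPF10, IVPF14, IVPF15, VE5, VE26, VE28 or VE29), with the largest adjusted p, 0.172, without VE5, and under 4 of 10 other settings, with up to 0.161 with limma voom. By list, the calls were 0 higher and 2 lower of 20 for uptake of lipoproteins, 1 and 1 of 26 for triacylglycerol turnover and 0 and 1 of 19 for regulators. No call was made among 16 genes of synthesis, 30 further genes of β-oxidation and 5 of ketone bodies.

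In the EEM, 4 of 107 of these other genes rose in IVP embryos and 1 fell (3.74% and 0.935%, against 2.29% and 1.52% of all genes). PPARGC1A, a coactivator of mitochondrial genes, had 2.79 ± 1.20 CPM in IVP and 5.67 ± 0.364 CPM in IVV embryos (log2 fold change -1.07 ± 0.27, adjusted p = 0.0229, edgeR). The ranges, 1.16 to 4.67 and 5.10 to 6.25 CPM, did not overlap, but the share of all genes whose groups separate in this way was not counted. EHHADH, the peroxisomal bifunctional enzyme, had 5.58 ± 2.20 and 2.60 ± 1.16 CPM (1.16 ± 0.30, adjusted p = 0.0245, edgeR), and LPCAT4, a lysophospholipid acyltransferase, 55.1 ± 12 and 34.1 ± 18.7 CPM (0.91 ± 0.24, adjusted p = 0.0256, edgeR). The remaining rises, PNPLA3 and DECR1, are named after their values were seen. PPARGC1A, EHHADH and LPCAT4 each lost the call without a surrogate variable, with XIST as a covariate and with the title letter as a term, with adjusted p up to 0.549, 0.465 and 0.462 (edgeR), and EHHADH also with limma voom (adjusted p = 0.0542). When 1 embryo was left out, PPARGC1A lost it in 2 of 14 fits (IVP11, IVPF9), EHHADH in 4 (IVP11, IVPF13, VE5, VE28) and LPCAT4 in 6 (IVP14, IVPF9, VE3, VE5, VE24, VE26).

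Between the tissues, 19 of 111 tested were higher in the ED (17.1%) and 3 were lower (2.7%), against 12.8% and 8.16% of all genes. LRP1 and LPL, which take up lipoprotein particles and release their fatty acids, and CIDEB, a lipid droplet protein of liver, were higher in the ED of 13 of 13 embryos. Their log2 differences were 1.55 ± 0.18, 2.33 ± 0.28 and 1.56 ± 0.20 (adjusted p = 1.71e-06, 2.94e-06 and 5.9e-06, edgeR). In the IVP embryos alone LRP1 and CIDEB were not called (0.93 and 1.28, adjusted p = 0.0894 and 0.0776, edgeR). The calls fell on 6 of 18 genes of lipoprotein uptake, 4 of 15 of synthesis, 3 of 5 of ketone bodies and 3 of 18 regulators, each higher in the ED, besides 1 lower uptake gene. Triacylglycerol turnover had 2 higher of 25, and β-oxidation 1 higher and 2 lower of 30. Cell type markers moved with this comparison. Of those tested, 7 of 8 epiblast, 6 of 7 mesoderm, 6 of 14 hypoblast and 2 of 18 trophoblast markers were higher in the ED, and 1 epiblast and 6 trophoblast markers were lower. The hypoblast sums overlapped, at 892 to 2781 CPM in the ED and 717 to 2838 in the EEM. Their part in these differences was not tested. For the interaction, 0 of 117 of these genes were called by edgeR, with 13 at an unadjusted p under 0.05 (11.1%, against 10.3% of all genes).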

How the data were processed

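Poly(A) RNA of 30 libraries from the ED and EEM was sequenced in pairs without strand information. Reads were filtered with SOAPnuke, alignment by the authors used STAR and the ARS-UCD1.3 genome, and the deposited values are raw counts per gene from featureCounts; the submitters' processing notes name FastQC 0.11.9, Trimmomatic, STAR 2.7.0b and Subread 2.0.3. Genes that overlap on opposite strands cannot be told apart. Symbols came from RefSeq on ARS-UCD2.0 by gene ID (31630 genes with 99.51% of the counts), and no positions were used.

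The tests were made in R 4.3.3 with edgeR 4.0.16, using TMM factors, filterByExpr (minimum count 10), the quasi-likelihood test and Benjamini-Hochberg adjustment over all genes tested at 0.05. IVP and IVV embryos were compared within each tissue with 1 surrogate variable (sva 3.50.0). ED and EEM, and the interaction, were compared in 26 libraries of 13 embryos with embryo as a block, since the sample titles assign both tissues to 1 embryo. Deviations of paired libraries from their group means correlated by over 0.1 in 12 of 13 pairs (r from -0.24, IVPF13, to 0.71). The pairing of IVPF13 thus rests on its titles alone. SE were derived from the F statistic. A floor of 3 counts per library covers counting error only. Where groups are said not to overlap, the share of all genes that separate in this way was not counted.

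The members and lists were chosen with earlier results of these data known. Named were ACSL4 and ACSM2B, members called in a comparison (at most 5 per role), the member of each family with the highest mean count, and the 3 called genes of the other lists with the smallest p. Further members (FABP1, FABP5, FADS1, FADS2B, FADS3, ELOVL3, ACSM3, ACSM4, PLIN2, PLIN4, DGAT2L6, CPT1C and AGPAT2) were named after their values were seen. Alternatives were DESeq2 1.42.0, limma voom 3.58.1, other scaling, filters and covariates, halved counts and leaving out embryos. Scripts were tested on simulated data.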

Additional observations from a re-analysis of the deposited data

Results flagged for a closer look

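Of 152 groups of named members examined for a library that stands apart by Dixon's ratio (the gap to the nearest library divided by the group's range, in log2 CPM), 15 passed the 95% critical value, where chance gives about 1 in 20. For ACSM2B in the EEM the ratio was 1 in both groups, from IVP11 among IVP and VE24 among IVV embryos, and rests on at most 2 counts against 0. VE19 was the lowest IVV embryo in the ED for ACSL1 (ratio 0.501) and LPIN1 (0.531), at 1.14 and 9.82 CPM. VE24 was the lowest IVV embryo in the EEM for PLIN3 (0.549), and VE29 the highest for CPT1A (0.553), at 413 and 80.8 CPM. IVP11 was the lowest IVP embryo in the ED for HADH (0.581), at 20.0 CPM. For FADS1, VE19 was the lowest IVV embryo in the ED (0.702, 11.3 CPM) and in the EEM (0.786, 4.06 CPM), and IVPF10 the lowest IVP embryo in the ED (0.572, 77.3 CPM). VE19 was the highest IVV embryo in the EEM for FADS3 (0.545, 338 CPM). The ratios of FABP1 (VE5 lowest in the ED, 0.534, and VE28 highest in the EEM, 1), FADS2B (VE5 highest in the ED, 0.533) and PLIN4 (IVPF14 lowest in the EEM of IVP embryos, 0.662) rest on few counts, with 0, 2, 18 and 0 in the libraries named.

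SCD5 passed the threshold for the interaction of tissue and procedure (log2 -5.69, adjusted p = 0.0322, edgeR), a call lost with DESeq2 (adjusted p = 0.183), with halved counts (adjusted p = 0.0551, edgeR) and in 7 of 13 fits that left out 1 embryo. The gene passed the count filter through the ED, and the EEM of IVV embryos was at the floor. SCD5 was lower in IVP embryos in the ED, and in the EEM it was read with 20 and 17 counts in 2 of the 5 paired IVP embryos and with at most 1 count in the 8 IVV embryos.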

How the results depend on the processing

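In the ED the count of members higher in IVP, 1, was 3 with DESeq2, 2 with 2 surrogate variables and 0 without a surrogate variable, with XIST as a covariate or with the letter that ends the sample title as a term. The count lower in IVP, 2, was 3 with DESeq2 and 1 with limma voom, with halved counts and with 2 surrogate variables. With each embryo left out these counts ran from 0 to 2 and from 0 to 3. In the EEM, DESeq2 gave 1 lower. Higher in IVP there were 2 with no filter and 2 with the filter of 10 counts in 3 libraries, and 1 with 2 surrogate variables. Leaving out embryos gave 0 to 2 higher and 0 to 1 lower. For the paired ED and EEM, dropping the replicate block left 5 higher and 3 lower, and IVP embryos alone 4 and 0, from 9 and 6. No filter gave 13 and 6, the filter of 10 counts in 3 libraries 13 and 8, and IVV embryos alone 8 and 8. The interaction gave 1 positive member with DESeq2 and 1 with limma voom, and its negative count, 1, was 0 with DESeq2 and with halved counts, 2 with no replicate block and 0 to 1 with embryos left out (0 to 1 positive). The sign of ACSL4 in the ED turned with XIST (log2 -0.14) and ran from -0.062 to 0.29 with embryos left out, and the interaction of ACSM2B ran from -0.44 to 2.87. Over all genes, 998 were called in the ED, against 1512 with DESeq2, 1846 with no filter, 1603 with the filter of 10 counts in 3 libraries and 663 with XIST. The EEM count, 561, was 1211, 963 and 145 for the last 3 and 333 with the title letter. ED against EEM had 3124, against 1553 with no replicate block and 488 in IVP embryos, and the interaction 172, against 435 with DESeq2, 329 with limma voom and 356 with no filter. With 1 embryo left out these 4 counts ran from 639 to 1160, 426 to 729, 2414 to 3722 and 101 to 211. They moved by over 1.5 times for the ED without VE29 (639) and for the interaction without VE29 (101), VE28 (104), IVP10 (109) or IVPF14 (109). The causes were not tested.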
